A study of Mus musculus with 20 samples.

Results

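The change in messenger RNA at the morula relative to the late 2-cell stage was compared between mouse embryos that had received siRNA against Pcgf5 (siPcgf5) and embryos that had received a non-targeting siRNA (siControl). The contrast is the siPcgf5 stage change minus the siControl stage change, and it takes 8 of the 20 samples of the series. Each of its 4 groups, siPcgf5 morula, siPcgf5 late 2-cell, siControl morula and siControl late 2-cell, held 2 libraries, each made from a pool of 10 embryos. All embryos came from in vitro fertilisation of superovulated oocytes, were electroporated 3 hours after insemination and were grown in KSOM medium. Late 2-cell pools were taken at 36 hours and morula pools at 72 hours. The samples not used are 4 libraries of chromatin marked by H2AK119ub1 and, at the 4-cell stage, 6 libraries of embryos labelled as heterozygous or homozygous knockouts of Pcgf5MT2C_Mm, while 2 wild-type 4-cell libraries serve only as a point in time. The siRNA sequences are not given, and a knockdown leaves some Pcgf5 mRNA. Nothing states that pools came from separate cultures, so p-values measure only the spread between these libraries, which may be technical.

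Between these stages the embryo turns over most of its RNA. Transcripts stored by the oocyte are degraded, a burst of zygotic genome activation (ZGA) at the 2-cell stage switches on genes such as the Zscan4 cluster along with the MERVL retrovirus, and this burst is then shut down. By the morula, cells compact and express genes for protein synthesis, respiration and the first lineages. The protein made from Pcgf5 joins RING1 enzymes in a variant form of Polycomb repressive complex 1 (PRC1) that ubiquitinates histone H2A, and this mark is tied to gene silencing. The series title asks how Pcgf5, driven by MERVL, bears on the suppression of ZGA.

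Depth in summed expected counts (read counts estimated per gene) ran from 22435872 to 34631179 per library at the late 2-cell stage and from 37628619 to 55620137 at the morula. Levels are given as CPM (edgeR's library-scaled counts, with TMM factors). They are shares of a library, so less RNA of a gene per cell and fewer cells expressing it cannot be told apart. Stage markers followed the labels. The 9 late 2-cell markers summed to between 8.90 and 28.4 CPM in siPcgf5 morula, 2580 and 3390 CPM in siPcgf5 late 2-cell, 28.9 and 45.9 CPM in siControl morula, and 1710 and 2110 CPM in siControl late 2-cell libraries. Of the 12 morula markers, 9 were called higher at the morula in each arm, though Upp1 and Fgf4 were called lower.

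siControl late 2-cell replicate 1 stood apart from the other 3 late 2-cell libraries. It held 312 CPM of Lyz2 and 17.6 CPM of Tyrobp, both genes of macrophages, against 1.36 to 3.37 CPM of Lyz2 and 0 CPM of Tyrobp in the other 3. Of the 18 blood and immune markers 8 were at 0 in it and 9 to 11 in the other 3, and their sum was 332 and 360 CPM in siPcgf5 late 2-cell pools, against 596 and 253 CPM in siControl ones. The sum of 10 Y-linked genes was 160 and 154 CPM in siPcgf5 late 2-cell pools and 61.7 and 233 CPM in siControl ones, with replicate 1 the low one. The part of this library in the results was not tested beyond leaving it out, and values without it stand beside many of the results it moves. The sums of 20 cumulus and granulosa markers (277 and 274 CPM in siPcgf5 morulae and 313 and 329 CPM in siControl morulae) lay almost wholly in Gja1, which embryos express too. The sums of 17 sperm markers were 125 and 136 CPM in siPcgf5 late 2-cell pools against 103 and 110 CPM in siControl late 2-cell pools. Counting is not stated to use strand, and reads of near-identical copies could be split, so values of Zscan4, Usp17l, Tcstv, Tdpoz, Fbxw, Hba and Gm genes are uncertain.

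Pcgf5 lies on chromosome 19, at chr19:36348329-36460970 of GRCm38.p6, the assembly behind mm10. Its mRNA stood at 38.8 and 32.0 CPM in siPcgf5 morulae and at 53.5 and 89.7 CPM in siPcgf5 late 2-cell embryos, against 243 and 165 CPM in siControl morulae and 310 and 806 CPM in siControl late 2-cell embryos. Every siPcgf5 library lay below every siControl library of its stage. The log2 fold change of siPcgf5 over siControl was -2.53 (SE 0.436) at the morula and -2.96 (SE 0.443) at the late 2-cell stage, with edgeR adjusted p of 0.242 and 0.0789. The stage change itself was -1.02 (SE 0.417) in siPcgf5 embryos and -1.45 (SE 0.419) in siControl embryos. Their difference of 0.43 (SE 0.583) ran from -0.36 to 0.95 as single libraries were left out, and was -0.36 without siControl late 2-cell replicate 2.

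Most stage changes that were called were called in both arms. Of 16980 genes tested, edgeR called 4162 higher and 4787 lower at the morula in siPcgf5 embryos (24.5% and 28.2%), and 4220 higher and 4766 lower in siControl embryos (24.9% and 28.1%). A total of 7710 genes passed in the same direction in both, which is 86.2% of the siPcgf5 calls and 85.8% of the siControl calls, and 3 passed in opposite directions. The arms share no library. Among the 8418 genes with at least 10 CPM in some group and no group at 0, the 2 stage changes had a Pearson correlation across genes of 0.97. It was 0.901 over the 14679 genes with no group at 0 and 0.849 over all genes tested, and these values describe genes and not replicates. In the 8418 genes the median size of the stage change was 1.53 on the log2 scale and the median size of the difference between arms was 0.296, below its median SE of 0.434. In 716 of them (8.51%) the difference exceeded 1 in either direction.

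**Figure D1:**
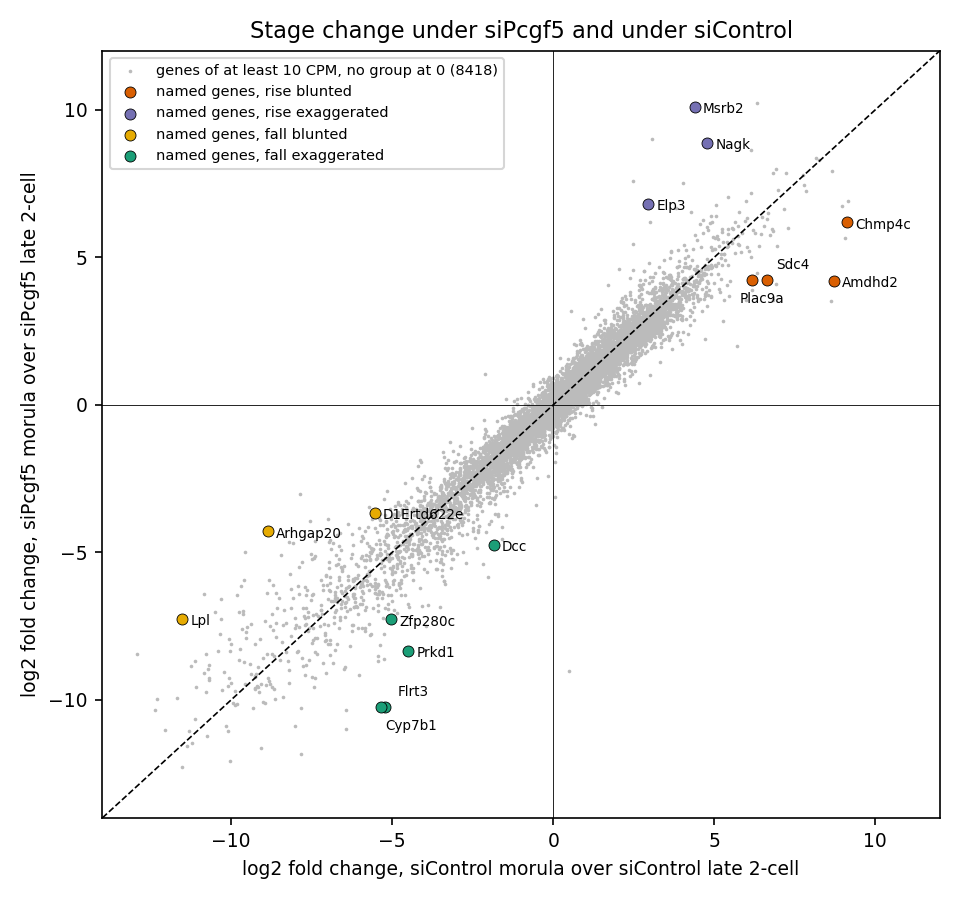
Each grey point is 1 of 8418 genes, with its log2 stage change (morula over late 2-cell) in siControl embryos on the x axis and in siPcgf5 embryos on the y axis. Points follow the dashed line of equal change; coloured points are the named genes with no group at 0, such as Nagk above the line and Amdhd2 below it.

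The difference between the stage changes was then tested gene by gene, with edgeR's quasi-likelihood test on the 8 libraries. No gene passed, with 0 higher and 0 lower in siPcgf5 (0%) and a smallest adjusted p of 0.281. At an unadjusted p under 0.05 there were 382 higher (2.25%) and 460 lower (2.71%), or 842 in all (4.96%). The DESeq2 Wald test called 18 higher (0.117%) and 14 lower (0.0913%) of 15334 genes with an adjusted p, and limma on log2(TPM + 1) called 1, Gm5891 (0.00589%). All 32 DESeq2 genes also had an unadjusted edgeR p under 0.05, and in 13 of them some group was at 0. Below, blunted and exaggerated therefore give the direction of an estimate in which no gene passed with edgeR, and the named genes are those with the smallest p in each class among genes that reach 10 CPM in some group and whose library pairs do not overlap, without predicted genes and pseudogenes.

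To sort the stage changes, a gene was counted as a rise or a fall from the mean of the 2 stage changes, which does not use their difference. There were 5125 rises (30.2% of genes) and 6354 falls (37.4%), 67.6% of genes together. A rise or fall is blunted where the siPcgf5 change is the smaller and exaggerated where it is the larger. Under siPcgf5, 2844 rises were blunted (55.5%) and 2281 exaggerated, while 3063 falls were blunted (48.2%) and 3291 exaggerated. Those shares sit near an even split and depend on the scaling: with DESeq2 size factors in edgeR, 49.5% of rises and 51.8% of falls were blunted. With DESeq2 and limma, which change the test too, the share of blunted rises was 49.4% and 46.9%. That of blunted falls was 52.5% and 60%. The median difference over all genes was -0.051 with edgeR and 0.07 with limma.

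The stage at which the arms differed more was counted as a description only, since these genes were picked by the p of the difference, pass the count filter through their high stage, and often have few counts at the other. Of the rises with an unadjusted p under 0.05, 151 of 156 blunted and 112 of 116 exaggerated ones differed more between siPcgf5 and siControl at the late 2-cell stage, before the gene was up. Of such falls, 158 of 180 blunted and 204 of 226 exaggerated ones differed more at the morula, after the gene was down. Some group stood at 0 in 27 of the 156 and 36 of the 116 rises, and in 75 of the 180 and 78 of the 226 falls.

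**Figure D2:**
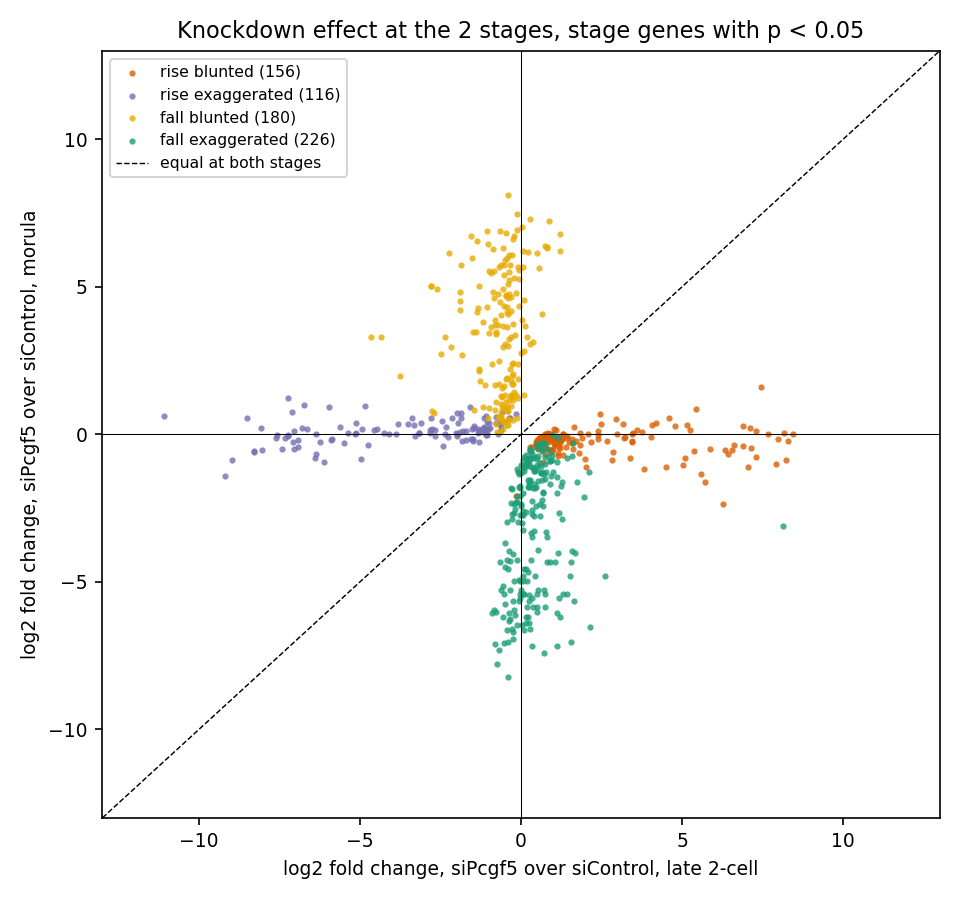
Each point is a rise or fall with an unadjusted interaction p under 0.05, placed by its log2 fold change of siPcgf5 over siControl at the late 2-cell stage (x axis) and at the morula (y axis). Rises lie along the horizontal axis (156 blunted, 116 exaggerated) and falls along the vertical axis (180 blunted, 226 exaggerated).

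Rises that were blunted started from a higher late 2-cell level in siPcgf5 embryos in all 5 named genes. These genes are Amdhd2, Sycn, Chmp4c, Plac9a and Sdc4, chosen from 445 that met the naming rule. That rule uses this same difference and the level of the highest group. The stage at which the 5 genes of any class part therefore describes the choice of genes and is no separate finding. All 5 had more mRNA in both siPcgf5 late 2-cell libraries than in both siControl ones, while their morula log2 fold changes of siPcgf5 over siControl lay between -0.63 and 0.26. The edgeR adjusted p of the difference was between 0.302 and 0.484.

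Amdhd2, an enzyme that removes the acetyl group of N-acetylglucosamine 6-phosphate, lies at chr17:24155833-24163733. It stood at 15.2 and 16.7 CPM in siPcgf5 morulae and 0.918 and 0.800 CPM in siPcgf5 late 2-cell embryos, against 13.9 and 12.6 CPM in siControl morulae and 0.0225 and 0.0373 CPM in siControl late 2-cell embryos. The late 2-cell values do not overlap and the morula values differ little. At the late 2-cell stage that is 63 counts in siPcgf5 and 2 counts in siControl, a ratio of 30.3 (exact 95% counting interval 8.06 to 256). Its stage change was 4.21 (SE 0.429) in siPcgf5 and 8.71 (SE 0.604) in siControl embryos on the log2 scale, a difference of -4.50 (SE 0.740).

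Sycn, a protein of zymogen granules, had 91.7 and 95 CPM in siPcgf5 morulae and 0.253 and 0.141 CPM in siPcgf5 late 2-cell embryos, a 495-fold rise (counting interval 295 to 907). The siControl values were 118 and 148 CPM in morulae and 0 in both late 2-cell libraries, a rise of at least 3161-fold with a floor of 3 counts over the group. The late 2-cell signal is 14 counts in siPcgf5, so this blunting rests on few reads. Chmp4c, a component of the ESCRT-III membrane scission machinery, had 39.0 and 44.2 CPM in siPcgf5 morulae and 0.792 and 0.377 CPM in siPcgf5 late 2-cell embryos. Its siControl levels were 44.2 and 38.1 CPM in morulae and 0.0674 and 0.0746 CPM in late 2-cell embryos, where it was covered by 5 counts against 41 in siPcgf5. The difference between its stage changes was -2.95 (SE 0.652).

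Plac9a and Sdc4 had more late 2-cell counts than the other 3. Plac9a had 100 and 101 CPM in siPcgf5 morulae and 6.87 and 3.93 CPM in siPcgf5 late 2-cell embryos, against 106 and 132 CPM in siControl morulae and 1.35 and 1.98 CPM in siControl late 2-cell embryos. Its difference was -1.95 (SE 0.437), and siPcgf5 late 2-cell embryos held 3.27 times the siControl level (384 against 113 counts). Sdc4, a heparan sulfate proteoglycan of the cell surface, had 51.6 and 75.2 CPM in siPcgf5 morulae and 2.47 and 4.21 CPM in siPcgf5 late 2-cell embryos. In siControl it had 89.6 and 106 CPM in morulae and 0.629 and 1.38 CPM in late 2-cell embryos. Its morula values were separated as well, lower in siPcgf5, as were those of Sycn and Plac9a. Those of Amdhd2 were separated with siPcgf5 higher. The difference between the stage changes of Sdc4 was -2.41 (SE 0.548). DESeq2 called Sdc4 (adjusted p 0.0322).

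Rises that were exaggerated started from a lower late 2-cell level in siPcgf5 embryos in all 5 named genes. These genes, from 227 eligible, are Serpinb6c, Elp3, Nagk, Msrb2 and Glipr1. In all 5 both siPcgf5 late 2-cell libraries lay below both siControl ones, and morula log2 fold changes of siPcgf5 over siControl lay between -0.89 and 0.34. The edgeR adjusted p of the difference ran from 0.281 to 0.341. DESeq2, run on the same counts, called all 5.

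Elp3, the catalytic subunit of the Elongator complex that modifies transfer RNA, had 25.3 and 36.3 CPM in siPcgf5 morulae and 0.285 and 0.259 CPM in siPcgf5 late 2-cell embryos. The siControl values were 30.7 and 17.8 CPM in morulae and 3.62 and 2.61 CPM in late 2-cell embryos. Morula values overlap and late 2-cell values do not, with 20 counts in siPcgf5 and 231 in siControl, or 12-fold lower (counting interval 7.59 to 20). Its stage change was 6.81 (SE 0.498) in siPcgf5 and 2.95 (SE 0.397) in siControl embryos, a difference of 3.86 (SE 0.587).

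Nagk, which phosphorylates N-acetylglucosamine and so feeds the pathway on which Amdhd2 acts, had 23.3 and 30.5 CPM in siPcgf5 morulae and 0.0633 and 0.0471 CPM in siPcgf5 late 2-cell embryos. Its siControl levels were 27.2 and 26.3 CPM in morulae and 1.28 and 0.634 CPM in late 2-cell embryos. The late 2-cell values are 4 counts against 74, and the difference between the stage changes was 4.10 (SE 0.697), opposite in sign to that of Amdhd2. Msrb2, a mitochondrial methionine sulfoxide reductase, had 19.8 and 16.9 CPM in siPcgf5 morulae and 19 and 22.2 CPM in siControl morulae. At the late 2-cell stage it had 1 count in siPcgf5 and 64 in siControl, 66.4-fold lower (counting interval 11.5 to 2665).

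Serpinb6c, a serpin on chromosome 13, and Glipr1, a secreted protein of the CAP family, were at 0 in both siPcgf5 late 2-cell libraries. Serpinb6c had 19.1 and 26 CPM in siPcgf5 morulae, at least 571-fold above its late 2-cell level. In siControl it had 30.7 and 36.7 CPM in morulae and 1.24 and 0.821 CPM in late 2-cell embryos, a 31.2-fold rise (counting interval 24.9 to 39.7). Glipr1 had 4.16 and 12.6 CPM in siPcgf5 morulae, at least 225-fold above its late 2-cell level. The siControl values were 13.1 and 17.9 CPM in morulae and 1.98 and 1.38 CPM in late 2-cell embryos, an 8.86-fold rise (counting interval 7.37 to 10.7). Morula values of both genes were separated as well, lower in siPcgf5. Both genes were listed at 0 TPM in both wild-type 4-cell libraries.

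**Figure D3:**
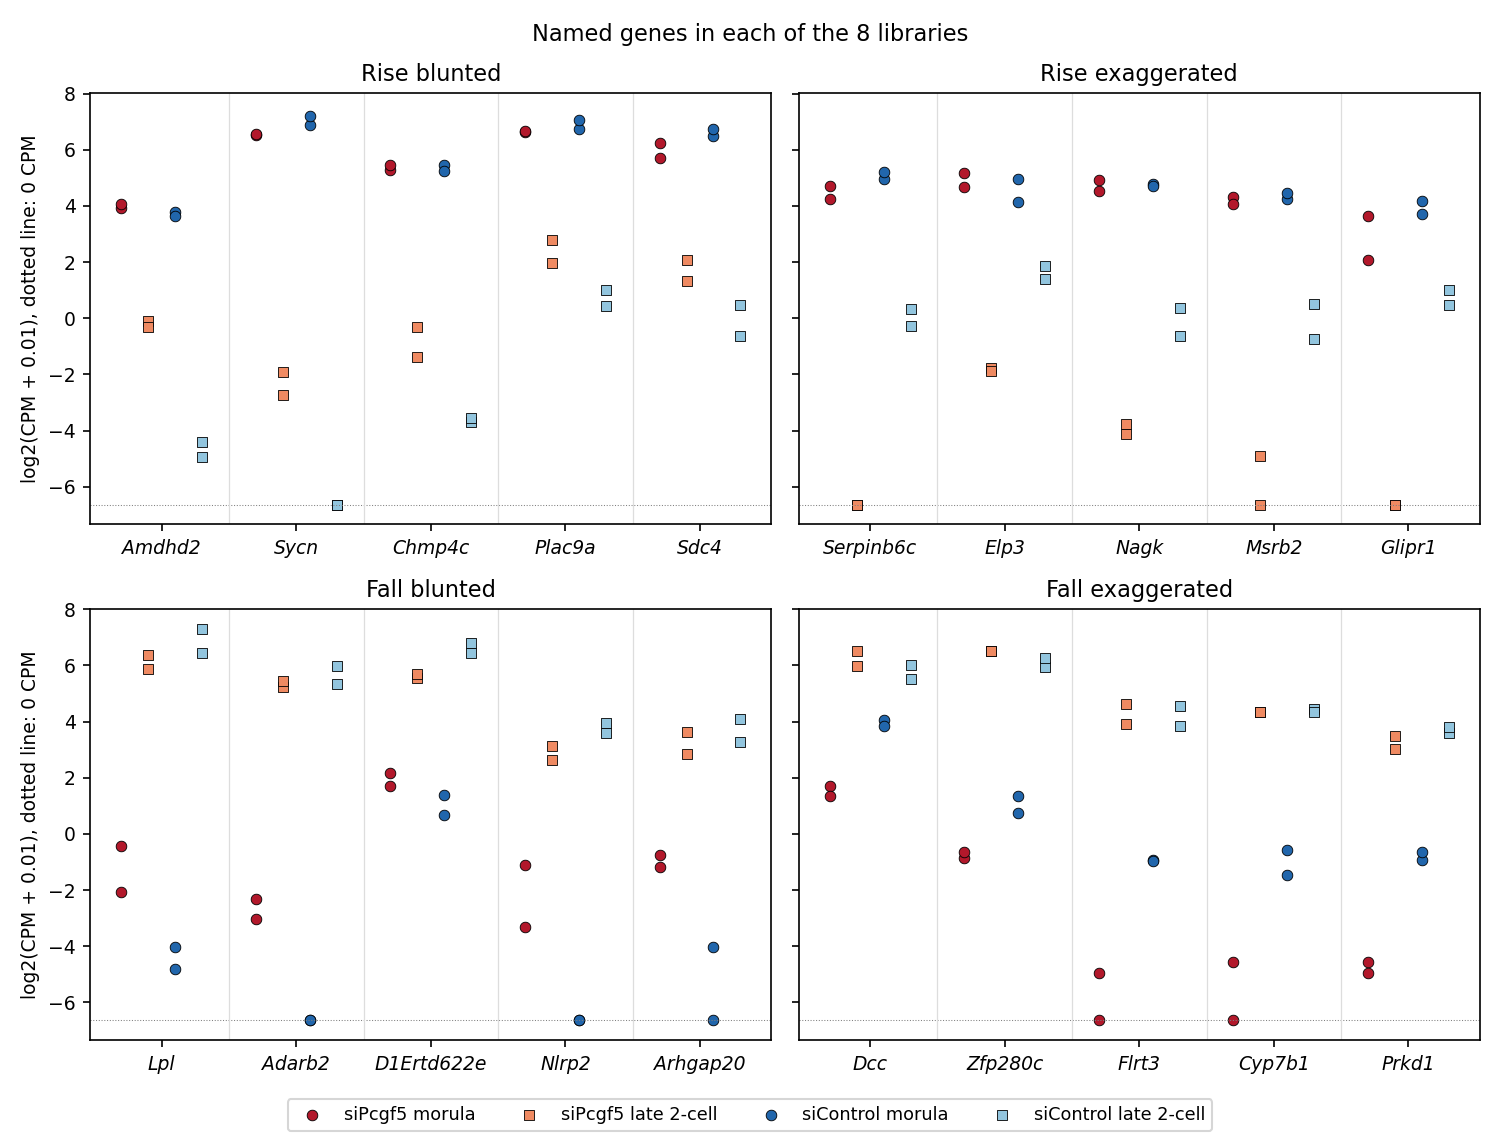
Level of the 20 genes of the naming rule in each of the 8 libraries, 5 genes per class, as log2(CPM + 0.01) with 1 point per library. Blunted and exaggerated rises part at the late 2-cell stage (squares), and blunted and exaggerated falls at the morula (circles). Some genes, such as Sdc4 and Lpl, are separated at both stages.

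Falls that were blunted ended higher in siPcgf5 morulae than in siControl morulae in all 5 named genes. These genes, from 207 eligible, are Lpl, Adarb2, D1Ertd622e, Nlrp2 and Arhgap20, with an edgeR adjusted p between 0.484 and 0.528. Their late 2-cell log2 fold changes of siPcgf5 over siControl were all below 0, from -1 to -0.36, so part of each difference lies there.

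Lpl, lipoprotein lipase, had 0.741 and 0.226 CPM in siPcgf5 morulae and 58.7 and 83.3 CPM in siPcgf5 late 2-cell embryos, against 0.0256 and 0.0508 CPM in siControl morulae and 158 and 86.0 CPM in siControl late 2-cell embryos. Both stages are separated, in opposite directions, though at the late 2-cell stage only narrowly (83.3 against 86.0 CPM). The siControl value of 158 CPM is that of late 2-cell replicate 1, the library with Lyz2. The morula values are 33 counts in siPcgf5 and 3 in siControl, a ratio of 11.5 (counting interval 3.59 to 58.4). The difference between the stage changes was 4.26 (SE 0.952). Adarb2, a relative of the RNA-editing adenosine deaminases, had 11 counts in siPcgf5 morulae and 0 in siControl morulae. It had 0.193 and 0.113 CPM in siPcgf5 morulae and 37.5 and 43.1 CPM in siPcgf5 late 2-cell embryos, a 279-fold fall (counting interval 156 to 559). In siControl, at 63.5 and 40.1 CPM in late 2-cell embryos, the fall was at least 1430-fold.

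D1Ertd622e was the best covered of the 5 at the morula. It had 4.51 and 3.25 CPM in siPcgf5 morulae and 46.8 and 51.9 CPM in siPcgf5 late 2-cell embryos, against 1.58 and 2.62 CPM in siControl morulae and 111 and 86.6 CPM in siControl late 2-cell embryos. Its difference was 1.88 (SE 0.431), with log2 fold changes of siPcgf5 over siControl of 0.88 at the morula and -1 at the late 2-cell stage. Nlrp2, a protein of the oocyte's subcortical complex that early embryos need, had 18 counts in siPcgf5 morulae and 0 in siControl morulae, and 8.74 and 6.19 CPM in siPcgf5 late 2-cell embryos against 15.4 and 12.2 CPM in siControl late 2-cell embryos. Arhgap20 had 37 counts in siPcgf5 and 2 in siControl morulae, a ratio of 19.3 (counting interval 4.97 to 165).

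Falls that were exaggerated ended lower in siPcgf5 morulae in all 5 named genes. These genes, from 225 eligible, are Dcc, Zfp280c, Flrt3, Cyp7b1 and Prkd1, with an edgeR adjusted p between 0.281 and 0.468. Their late 2-cell log2 fold changes of siPcgf5 over siControl lay between -0.44 and 0.47, and their morula ones between -4.96 and -1.81.

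Dcc, a netrin receptor known from axon guidance, had the smallest p of all genes, 3.45e-05. It stood at 3.25 and 2.51 CPM in siPcgf5 morulae and 63.0 and 90.6 CPM in siPcgf5 late 2-cell embryos, against 16.5 and 14.2 CPM in siControl morulae and 45.3 and 65.4 CPM in siControl late 2-cell embryos. The morula values are separated and the late 2-cell values overlap. Its stage change was -4.74 (SE 0.341) in siPcgf5 and -1.85 (SE 0.298) in siControl embryos, a difference of -2.89 (SE 0.422), and siPcgf5 morulae held 5.47-fold less (212 against 1207 counts).

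Zfp280c, a zinc finger protein gene at chrX:48541626-48594648, had 0.548 and 0.632 CPM in siPcgf5 morulae and 92.4 and 92 CPM in siPcgf5 late 2-cell embryos. Its siControl levels were 1.66 and 2.52 CPM in morulae and 61.2 and 76.8 CPM in late 2-cell embryos. Both stages are separated, lower in siPcgf5 at the morula and higher at the late 2-cell stage, and the difference was -2.23 (SE 0.408). DESeq2 called both Dcc (adjusted p 2.68e-05) and Zfp280c (adjusted p 0.00589). Flrt3, a cell adhesion protein, and Cyp7b1, an oxysterol hydroxylase, each had 1 count in siPcgf5 and 40 counts in siControl morulae, 38.4-fold lower (counting interval 6.51 to 1554). Prkd1, protein kinase D1, had 2 counts against 45, 21.6-fold lower (counting interval 5.64 to 184). On log2(TPM + 1), where such levels weigh little, the Prkd1 difference was 0.30.

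Among genes that other tools called, named here after their values were seen, Malat1, Pdcl3 and Cd151 were well covered at both stages. Malat1, a long non-coding RNA of the nucleus, had 1700 and 1740 CPM in siPcgf5 morulae and 105 and 101 CPM in siPcgf5 late 2-cell embryos, against 1700 and 2120 CPM in siControl morulae and 322 and 278 CPM in siControl late 2-cell embryos. Its rise was thus exaggerated by a lower start, with a difference of 1.39 (SE 0.288), an edgeR adjusted p of 0.41 and a DESeq2 adjusted p of 0.000928. Pdcl3, a phosducin-like co-chaperone, had 126 and 145 CPM in siPcgf5 morulae and 19.5 and 21.8 CPM in siPcgf5 late 2-cell embryos. In siControl it had 159 and 162 CPM in morulae and 60.7 and 55.6 CPM in late 2-cell embryos, and the difference was 1.25 (SE 0.288).

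Cd151, a tetraspanin of the cell surface, had 15.9 and 17.1 CPM in siPcgf5 morulae and 16.6 and 15.8 CPM in siControl morulae, and 1.27 and 0.706 CPM in siPcgf5 late 2-cell embryos against 5.46 and 4.55 CPM in siControl late 2-cell embryos. Its difference was 2.38 (SE 0.552). With any single library left out, these differences ran from 1.24 to 1.55 for Malat1, from 1.13 to 1.37 for Pdcl3 and from 2.04 to 2.87 for Cd151. Of the 32 genes that DESeq2 called, 20 differed more at the late 2-cell stage. The 32 were sorted by the signs of the mean stage change and of the difference alone, whether or not the stage change was called. By sign 12 were exaggerated rises, 4 blunted rises, 10 exaggerated falls and 6 blunted falls.

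Gm595 was called in opposite directions in siPcgf5 and siControl embryos. It had 7.83 and 8.40 CPM in siPcgf5 morulae and 5.19 and 2.75 CPM in siPcgf5 late 2-cell embryos, against 6.06 and 5.26 CPM in siControl morulae and 24.1 and 25.4 CPM in siControl late 2-cell embryos. It was called higher at the morula in siPcgf5 (log2 change 1.03, edgeR adjusted p 0.0438) and lower in siControl (-2.13, edgeR adjusted p 0.00106). Gm5891, a predicted gene, was at 0 in siPcgf5 morulae and had 24.3 and 18.0 CPM in siPcgf5 late 2-cell embryos, a fall of at least 519-fold. The siControl values were 2 counts in morulae and 5 in late 2-cell embryos, so it had no stage change that these counts could show.

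With all 8 libraries, cytosolic ribosomal protein mRNAs showed a small shift shared by the whole list. All 81 were blunted rises under siPcgf5, with a median difference of -0.466 and a range from -1.08 to -0.0518, where 53% of all genes tested lay below 0. The median stage change was 2.7 in siPcgf5 and 3.21 in siControl embryos on the log2 scale. At the morula 80 and all 81 members were called higher, where 24.5% and 24.9% of all genes were. No member passed in the difference, and 6 had an unadjusted p under 0.05, which 2.71% of all genes reached in that direction. In 43 every siPcgf5 library pair showed a smaller change than every siControl pair, a pattern found in 10.1% of all genes.

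With all 8 libraries the blunting lay mostly at the late 2-cell stage. There all 81 had a log2 fold change of siPcgf5 over siControl above 0 (median 0.391). At the morula 71 of 81 lay below 0 (median -0.0973). In mean log2 CPM the list stood at 10.30 and 10.33 in siPcgf5 morulae and 7.69 and 7.5 in siPcgf5 late 2-cell embryos. In siControl it stood at 10.45 and 10.36 in morulae and 6.90 and 7.47 in late 2-cell embryos. The low value is siControl late 2-cell replicate 1, the library with Lyz2, and replicate 2 lay just under both siPcgf5 libraries. The larger share of the late 2-cell stage thus rests largely on replicate 1. Without replicate 1 the median difference was -0.21 with 71 of 81 below 0, and without replicate 2 it was -0.75. It was below 0 under every other alternative run, between -0.52 and -0.30.

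**Figure D4:**
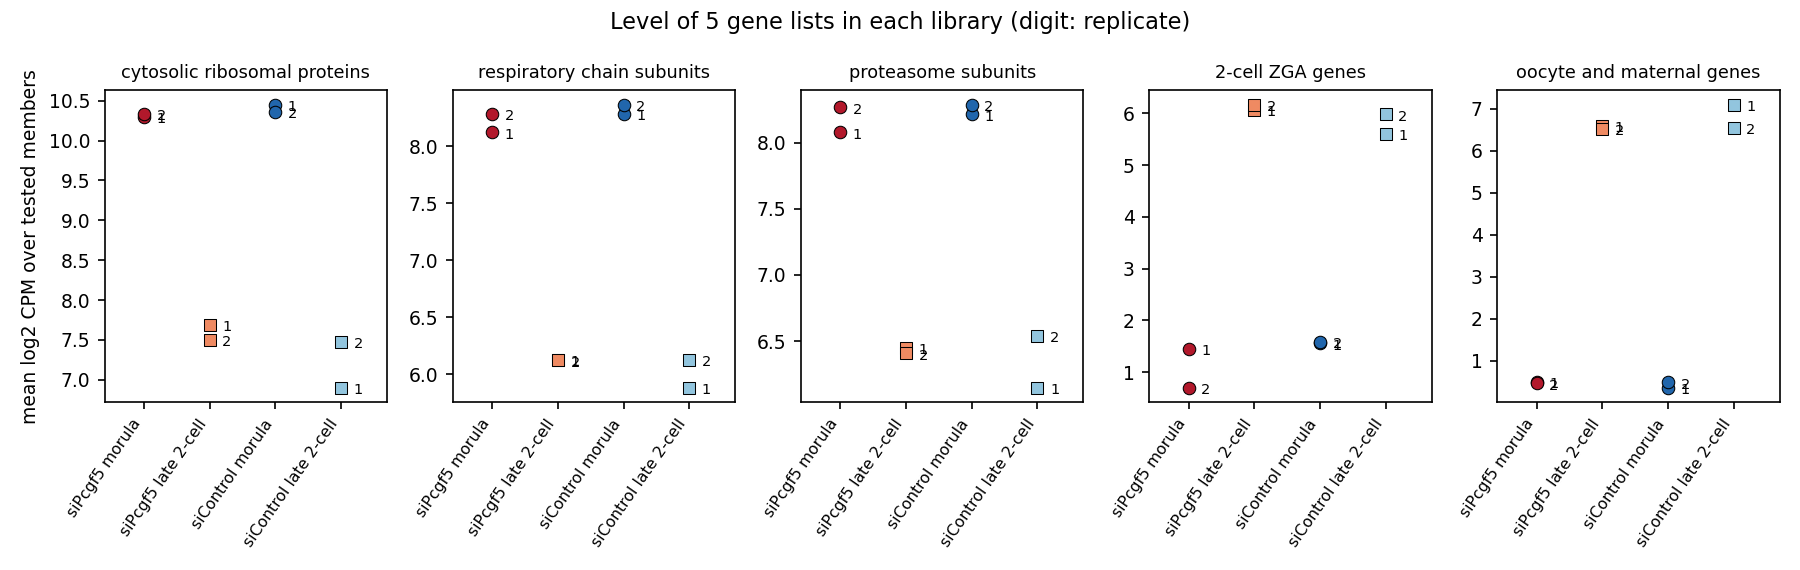
Mean log2 CPM over the tested members of 5 gene lists in each library, with the replicate number beside each point. For ribosomal proteins both siPcgf5 late 2-cell libraries (7.5 and 7.69) lie above both siControl ones (6.90 and 7.47), and siControl replicate 1 is the lowest.

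Rpl26, of the large subunit, had the smallest p of the list. It stood at 495 and 571 CPM in siPcgf5 morulae and 44.4 and 43.8 CPM in siPcgf5 late 2-cell embryos, against 682 and 584 CPM in siControl morulae and 23.0 and 26.6 CPM in siControl late 2-cell embryos. Both stages are separated, and the difference was -1.08 (SE 0.285). Rpl41, whose product is a very short peptide of the large subunit, had 8090 and 7040 CPM in siPcgf5 morulae and 2250 and 2610 CPM in siPcgf5 late 2-cell embryos. Its siControl levels were 7850 and 7410 CPM in morulae and 1270 and 1530 CPM in late 2-cell embryos, with a difference of -0.81 (SE 0.296).

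The small-subunit genes Rps29 and Rps21 differed in the same direction. Rps29 had 2190 and 2320 CPM in siPcgf5 morulae and 356 and 363 CPM in siPcgf5 late 2-cell embryos, against 2570 and 2460 CPM in siControl morulae and 200 and 263 CPM in siControl late 2-cell embryos (difference -0.79, SE 0.290). Rps21 had 461 and 479 CPM in siPcgf5 morulae and 119 and 104 CPM in siPcgf5 late 2-cell embryos, against 544 and 526 CPM in siControl morulae and 58.2 and 88.2 CPM in siControl late 2-cell embryos (difference -0.80, SE 0.325). Without siControl late 2-cell replicate 1 the differences were -0.99 for Rpl26, -0.69 for Rpl41, -0.62 for Rps29 and -0.54 for Rps21.

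As a description of the ribosomal protein list, start regions are shown for the members with the smallest p that have an entry among the RefSeq promoters of GRCm38.p6. Each runs from 120 bases before to 30 bases after the annotated start, on the gene's strand, with the letters CCGGAAG on either strand in capitals. These letters are the core recognised by ETS factors such as GABPA.
Rpl26, chr11:68901446-68901595, plus strand: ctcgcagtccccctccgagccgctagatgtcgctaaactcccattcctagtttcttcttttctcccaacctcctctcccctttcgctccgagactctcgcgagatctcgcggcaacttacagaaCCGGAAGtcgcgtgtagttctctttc
Rpl41, chr10:128549139-128549288, minus strand: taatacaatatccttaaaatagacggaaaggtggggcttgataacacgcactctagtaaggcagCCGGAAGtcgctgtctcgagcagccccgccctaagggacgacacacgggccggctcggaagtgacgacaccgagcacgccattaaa
Rps21, chr2:180257259-180257408, plus strand: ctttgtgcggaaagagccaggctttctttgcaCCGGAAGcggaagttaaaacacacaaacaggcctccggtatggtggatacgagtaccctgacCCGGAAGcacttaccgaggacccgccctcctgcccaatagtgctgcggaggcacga
Over windows from 250 bases before to 50 after the start, 24 of the 60 ribosomal protein promoters with an entry held these letters (40%), against 1927 of 12746 promoters of all genes tested (15.1%). The share was 35.1% for the proteasome list and 21.3% for the respiratory chain list. It was 5.26% for the 2-cell ZGA list and 2.38% for the oocyte and maternal list. A link between these letters and the stage changes was not tested. An unbroken run of at least 8 pyrimidines within 20 bases of the start, as in the terminal oligopyrimidine tract of such mRNAs, was present in 29 of the 60 (48.3%) and in 15.6% of all. Within 20 bases of the start, the longest runs in the 3 genes shown are shorter, of 4, 3 and 7 bases. These matches describe the letters alone and are not evidence of binding.

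Respiratory chain and proteasome genes had smaller medians of the same sign. Of 73 respiratory chain subunits 63 had a difference below 0 (median -0.229), and in 18 the library pairs did not overlap with siPcgf5 below, where 10.1% of all genes did so. Their median stage change was 2.16 in siPcgf5 and 2.37 in siControl. Ndufb7, a complex I subunit, had 281 and 265 CPM in siPcgf5 morulae and 43.5 and 48.7 CPM in siPcgf5 late 2-cell embryos, against 293 and 365 CPM in siControl morulae and 32.8 and 32.0 CPM in siControl late 2-cell embryos. Its difference was -0.78 (SE 0.286), and that of Ndufa7, also of complex I, was -0.73 (SE 0.285). Of 43 proteasome subunits 34 were below 0 (median -0.211), with Psma4, of the core ring, at -0.79 (SE 0.318). Without siControl late 2-cell replicate 1 the medians were -0.14 with 50 of 73 below 0 for the respiratory chain and -0.059 with 25 of 43 for the proteasome. They were -0.36 for both without siControl late 2-cell replicate 2, and -0.36 and -0.32 without siPcgf5 morula replicate 2.

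Other lists that rose between the stages had medians nearer 0. In siPcgf5 embryos 39 of 52 ribosome biogenesis genes, 33 of 43 translation initiation factors and 29 of 42 splicing factors rose. Of all genes tested 24.5% rose there. The median differences of the lists were 0.0494, -0.0787 and -0.0161. Without siControl late 2-cell replicate 1 these were 0.25, 0.10 and 0.17, and without replicate 2 they were -0.24, -0.33 and -0.16. Among initiation factors Eif4b had a difference of 0.86 (SE 0.317) and Eif4e3 of 1.57 (SE 0.579), which was 0.82 without siControl late 2-cell replicate 1. Of 35 heat shock chaperones 26 were below 0 (median -0.0951, or -0.024 without siControl late 2-cell replicate 1). Dnajb1, a co-chaperone of HSP70, had 75.4 and 73.8 CPM in siPcgf5 late 2-cell embryos against 37.9 and 32.8 CPM in siControl late 2-cell embryos, and 104 and 99.7 CPM against 90.2 and 92.7 CPM in morulae. Its rise of 0.45 in siPcgf5 did not pass (edgeR adjusted p 0.0842), while that of 1.37 in siControl did (edgeR adjusted p 0.000261), and the difference of -0.92 (SE 0.286) did not.

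The 2-cell ZGA genes had a larger median fall under siPcgf5, with no member past the test. Of 41 tested, 34 fell in siPcgf5 and 31 in siControl embryos, where 28.2% and 28.1% of all genes fell, with median stage changes of -4.90 and -3.80. The difference had a median of -0.856, with 28 of 41 below 0, where 53% of all genes tested lay below 0. Of the 28, 7 had an unadjusted edgeR p under 0.05, which 2.71% of all genes reached in that direction, and 0 passed adjustment. In 8 of 41 the library pairs did not overlap with siPcgf5 below, a pattern found in 10.1% of all genes. By count of members the shift had parts at both stages, with 27 of 41 lower in siPcgf5 morulae and 32 of 41 higher in siPcgf5 late 2-cell embryos. The shares of all genes in these 2 directions are not given here. The median stayed below 0 but was -0.27 without siControl morula replicate 1, -0.46 without siControl morula replicate 2, -0.48 without siPcgf5 morula replicate 2 and -0.57 without siControl late 2-cell replicate 1.

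The siPcgf5 morulae differed between themselves in these genes. Their mean log2 CPM was 1.46 and 0.70, against 1.56 and 1.59 in siControl morulae. It was 6.07 and 6.17 in siPcgf5 against 5.60 and 5.98 in siControl late 2-cell embryos. Each part thus rests largely on 1 library, siPcgf5 morula replicate 2 (0.70) and siControl late 2-cell replicate 1 (5.60). Zfp352, a zinc finger gene of the 2-cell burst, stood at 8.63 and 0.0452 CPM in siPcgf5 morulae and 32.2 and 10.4 CPM in siControl morulae. Without siPcgf5 morula replicate 1, edgeR called 5 genes lower in the difference, named here after their values were seen: BB287469, Gm20767, Gm4027, Gm4850 and Zfp352 (-9.19, edgeR adjusted p 0.0384). With all 8 libraries none of the 5 passed.

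Usp17ld and Usp17lc, deubiquitinase genes of a multi-copy family, had differences of -2.07 (SE 0.599) and -1.57 (SE 0.546). Usp17ld had 0.258 and 0.203 CPM in siPcgf5 morulae and 13.4 and 20.7 CPM in siPcgf5 late 2-cell embryos, against 0.920 and 1.04 CPM in siControl morulae and 18.9 and 15.7 CPM in siControl late 2-cell embryos. Its morula values are separated. Usp17lc had 0.902 and 0.429 CPM in siPcgf5 morulae and 0.895 and 1.27 CPM in siControl morulae, with 36.5 and 43.8 CPM in siPcgf5 late 2-cell embryos against 22.3 and 22.5 CPM in siControl late 2-cell embryos, so that it parted at the earlier stage. Zscan4c and Zscan4d, markers of the late 2-cell stage, had 623 and 820 CPM and 493 and 508 CPM in siPcgf5 late 2-cell embryos. In siControl late 2-cell embryos they had 398 and 523 CPM and 229 and 336 CPM, and neither exceeded 1.13 CPM in any morula library.

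Oocyte and maternal genes had a median of the opposite sign, which did not hold without every library. Of 53 tested, 48 fell in siPcgf5 and 49 in siControl embryos, where 28.2% and 28.1% of all genes fell. Differences lay above 0 in 31, against 47% of all genes, with a median of 0.247. That sign rests on single libraries. Leaving out siControl late 2-cell replicate 1 gave -0.12; that library held the most maternal mRNA (mean log2 CPM 7.09 against 6.51 to 6.59 in the other 3). The median was 0.12 without siPcgf5 morula replicate 1, 0.57 with siControl late 2-cell replicate 2 left out, and 0.73 when siControl morula replicate 2 was. Within the Fbxw family, F-box genes of the oocyte with near-identical copies, members differed in sign. Fbxw14 had 1.26 and 1.96 CPM in siPcgf5 morulae against 0.767 and 0.229 CPM in siControl morulae (difference 1.97, SE 0.548), and Fbxw18 had a difference of 4.50 (SE 1.34). With single libraries left out they ran from 1.35 (without siControl morula replicate 2) to 3.08 (without siControl morula replicate 1) for Fbxw14. For Fbxw18 they ran from 1.44 (without siPcgf5 morula replicate 2) to 6.76 (without siControl morula replicate 2). Fbxw15 had 0.870 and 0.768 CPM in siPcgf5 morulae against 1.53 and 1.83 CPM in siControl morulae (difference -1.04, SE 0.317). All 3 stood at 95.6 CPM or more in every late 2-cell library. The 39 genes of maternal mRNA clearance had a median difference of 0.013.

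Lineage genes had small medians on both sides of 0. The medians were -0.162 over 29 pluripotency regulators, 0.00932 over 31 trophectoderm genes and -0.315 over 18 primitive endoderm genes, and single libraries moved them. Without siPcgf5 late 2-cell replicate 2 the endoderm median was 0.43, and the trophectoderm median was -0.57 without siPcgf5 morula replicate 2 and 0.19 without replicate 1. Tbx3, a transcription factor of the naive state, had 49.5 and 40.2 CPM in siPcgf5 morulae and 49.5 and 40.1 CPM in siControl morulae. It had 9.25 and 8.97 CPM in siPcgf5 late 2-cell embryos against 3.95 and 3.40 CPM in siControl late 2-cell embryos, so its rise was blunted (difference -1.30, SE 0.379). Tdgf1, a Nodal co-receptor, had 160 and 123 CPM in siPcgf5 morulae against 87.0 and 95.2 CPM in siControl morulae, and an exaggerated rise (difference 1.72, SE 0.560). Gata6 and Fgfr2, which act in the choice between epiblast and primitive endoderm, had exaggerated rises too. Gata6 had 204 and 169 CPM in siPcgf5 morulae and 194 and 176 CPM in siControl morulae, with 4.18 and 3.13 CPM in siPcgf5 late 2-cell embryos against 5.91 and 6.01 CPM in siControl late 2-cell embryos (difference 0.72, SE 0.321). The Fgfr2 difference was 1.14 (SE 0.460). Nr0b1, a nuclear receptor of pluripotent cells, turned from a difference of 5.81 to -1.33 when siControl late 2-cell replicate 1 was left out.

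Among compaction and blastocoel genes 28 of 42 lay below 0 (median -0.139, or -0.28 without siControl late 2-cell replicate 1). Epcam, an adhesion molecule of epithelia, had 39.0 and 74.1 CPM in siPcgf5 morulae and 141 and 120 CPM in siPcgf5 late 2-cell embryos, against 73.7 and 66.1 CPM in siControl morulae and 71.1 and 95.3 CPM in siControl late 2-cell embryos. It fell in siPcgf5 (-1.20, edgeR adjusted p 0.00682) and was not called in siControl (-0.25, edgeR adjusted p 0.499), and the difference of -0.95 (SE 0.424) did not pass. It was -0.57 without siPcgf5 morula replicate 1 and -1.5 without replicate 2. Vil1, villin of microvilli, had 0.934 and 1.54 CPM in siPcgf5 morulae against 0.332 and 0.330 CPM in siControl morulae (difference 2.34, SE 0.585). The 23 Hippo pathway genes had a median of -0.0232 and the 27 p53 targets of -0.163.

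The lists of Polycomb subunits and of H2A deubiquitinases had medians just above 0. The medians were 0.0947 over 37 PRC1 subunits, 0.0967 over 14 PRC2 subunits and 0.0374 over 16 H2A deubiquitinases and partners. Pcgf6, the paralog that defines another variant PRC1, had 67.5 and 64.2 CPM in siPcgf5 morulae and 169 and 196 CPM in siPcgf5 late 2-cell embryos, against 58.9 and 46.6 CPM in siControl morulae and 272 and 219 CPM in siControl late 2-cell embryos. Both stages are separated, in opposite directions, and its fall was blunted (difference 0.75, SE 0.308). Scml2, a PRC1 partner, had 0.902 and 0.632 CPM in siPcgf5 morulae against 0.383 and 0.254 CPM in siControl morulae (difference 1.35, SE 0.462).

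Of 102 developmental Polycomb targets 76 passed the filter on low counts, and in 19 of these some group was at 0. The summed level of all 102 was 414 and 343 CPM in siPcgf5 morulae and 143 and 131 CPM in siPcgf5 late 2-cell embryos. In siControl it was 349 and 326 CPM in morulae and 184 and 157 CPM in late 2-cell embryos. Gata6, given above, made up much of the morula sums. Over the 76 tested, mean log2 CPM was lower at the morula. It was -1.245 and -1.463 in siPcgf5 morulae and -0.392 and -0.442 in siPcgf5 late 2-cell embryos. In siControl it was -1.398 and -1.237 in morulae and 0.094 and -0.1504 in late 2-cell embryos. Of the 76, 7 rose and 18 fell in siPcgf5 embryos, where 24.5% and 28.2% of all genes did. In siControl 7 rose and 21 fell, where 24.9% and 28.1% of all genes did. The median difference was 0.148, or 0.372 over those with no group at 0. Leaving out siControl late 2-cell replicate 1 gave -0.19, and leaving out siPcgf5 late 2-cell replicate 1 gave 0.79. In 12 of 76 the library pairs did not overlap with siPcgf5 above, a pattern found in 8.35% of all genes. Pax6, a regulator of eye and brain formation, had 9.21 and 5.15 CPM in siPcgf5 morulae and 7.69 and 4.73 CPM in siPcgf5 late 2-cell embryos, against 4.68 and 3.36 CPM in siControl morulae and 12.7 and 9.51 CPM in siControl late 2-cell embryos (difference 1.67, SE 0.655). It was called lower at the morula in siControl (-1.47, edgeR adjusted p 0.0227) and not called in siPcgf5 (0.21, edgeR adjusted p 0.721). Among 46 imprinted genes, with a median of -0.137, Phlda2, a growth-restraining gene of the placenta, had a difference of -1.33 (SE 0.472), or -0.60 without siControl morula replicate 2.

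**Figure D5:**
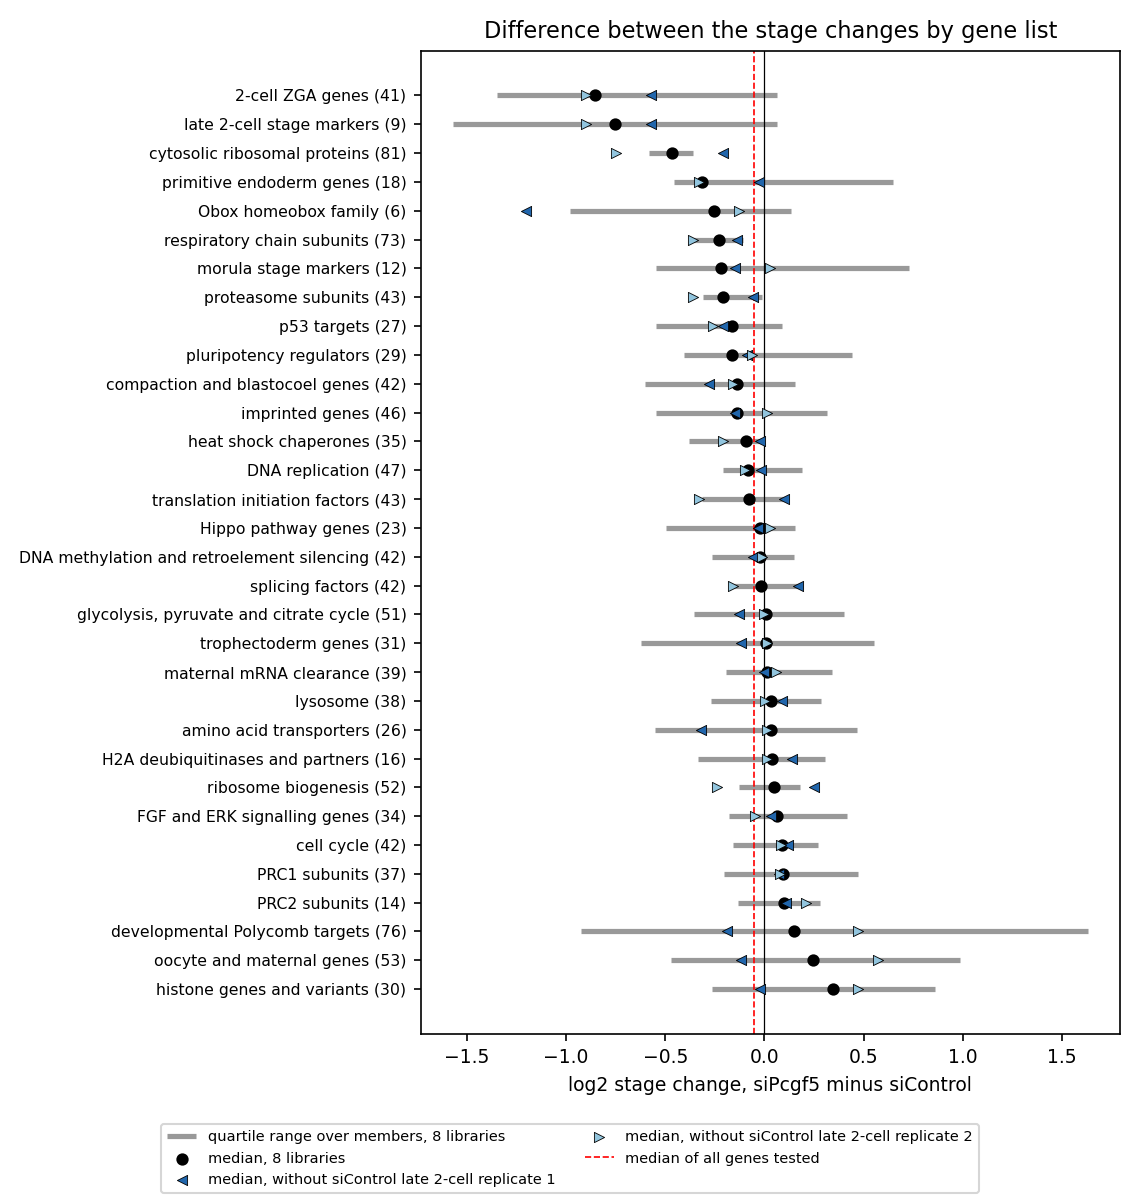
Median (black) and quartile range (grey) of the difference between the log2 stage changes, siPcgf5 minus siControl, for 32 gene lists with the number of tested members. Triangles give the median without either siControl late 2-cell library; the ribosomal protein median of -0.466 moves to -0.21 and -0.75, and the dashed line is the median of all genes (-0.051).

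The medians of the remaining lists lay on both sides of 0. The median was 0.0874 over 42 cell cycle genes, -0.0847 over 47 DNA replication genes, 0.00894 over 51 genes of glycolysis, pyruvate and citrate metabolism, 0.0305 over 38 lysosome genes and 0.0308 over 26 amino acid transporters. Leaving out siControl late 2-cell replicate 1 gave a transporter median of -0.32. The histone list had a median of 0.346 over 30 genes, or -0.022 without that library and 0.56 without siControl morula replicate 1. The 6 Obox genes had a median of -0.256, or -1.2 without siControl late 2-cell replicate 1. Single members went both ways. The cyclin genes Ccnd2 and Ccnd3 had differences of 1.57 (SE 0.612) and 1.69 (SE 0.659), and that of Ccnd3 was 0.60 without siControl late 2-cell replicate 1. The lysosomal enzymes Ctsd, a protease, and Hexa, a hexosaminidase, had differences of 1.15 (SE 0.445) and 1.71 (SE 0.573), and Ctsd was at 0.49 without that library. The histone variant gene H2afx had 284 and 411 CPM in siPcgf5 morulae against 239 and 241 CPM in siControl morulae (difference 0.88, SE 0.320).

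Wild-type embryos of the same series at the 4-cell stage, 48 hours after insemination, give a level between the 2 stages, in TPM, the authors' levels scaled for transcript length and library. The files were not normalised together, so the levels are set side by side without a test. Plac9a stood at 246 and 368 TPM in wild-type 4-cell embryos, close to its 322 and 306 TPM in siPcgf5 and 318 and 401 TPM in siControl morulae. Rpl26 stood at 529 and 440 TPM, below its 1177 and 1293 TPM in siPcgf5 and 1530 and 1320 TPM in siControl morulae. Zfp280c, at 4.58 and 8.04 TPM, lay below its late 2-cell level of 35.7 and 37.0 TPM in siPcgf5 and 27.6 and 31.1 TPM in siControl embryos.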

How the data were processed

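RNA-seq libraries were made by the submitters with a SMART-Seq v4 PLUS kit, per the labels' protocols. The deposited tables hold expected counts and TPM per gene, made by the authors. The submitters' processing notes list STAR 2.7.10, RSEM 1.3.3, Bowtie2 2.4.5, deepTools and mm10, with no role or order. Strand use is not given in the sources used here.

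Expected counts were rounded and genes kept by edgeR's filterByExpr (minimum count 10), which left 16980 of 24411. edgeR 4.0.16 (R 4.3.3) was run with TMM scaling and robust quasi-likelihood F tests on the means of 4 groups, with no block. Calls used a Benjamini-Hochberg adjusted p under 0.05. Library pairs were compared on log2 CPM with a prior count of 2. Counting intervals are exact at 95% and cover counting error only, since reads without molecular identifiers are not independent molecules.

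Alternatives were DESeq2 size factors, no filter, DESeq2 1.42.0, limma 3.58.1 on log2(TPM + 1) of the deposited TPM, a replicate block and each library left out. The edgeR fit of the difference was also run on simulated counts, whose outcome is not given here. Members and lists were chosen with earlier results of these data known. Named genes were the 5 with the smallest p in each class among called stage changes with non-overlapping library pairs and at least 10 CPM in the highest group, without predicted genes and pseudogenes (by symbol), and the 2 to 4 with the smallest p in a list. Of 1327 list entries 1317 matched the tables, 21 of them by an older symbol. Of the genes in the files 23194 matched the RefSeq table. Same-numbered libraries did not deviate together (correlations -0.0378 to 0.00701), so numbers were not taken as pairs. All libraries carry batch label 1.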

Additional observations from a re-analysis of the deposited data

How the results depend on the processing

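The count of genes in which the stage changes differed was 0 higher and 0 lower with edgeR, and it depends on the tool. Without the filter on low counts it was 12 higher and 21 lower, with DESeq2 18 higher and 14 lower, and with limma 1 lower. Leaving out single libraries gave 0 higher throughout and 0 to 5 lower. With the replicate block, which pairs libraries by number only, it was again 0 and 0. The block gave 3978 higher and 4433 lower in siPcgf5 and 4045 higher and 4364 lower in siControl. Without the block there were 4162 higher and 4787 lower in siPcgf5 and 4220 higher and 4766 lower in siControl.

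With limma the stage change had 2558 genes higher in siPcgf5, 2452 higher and 7388 lower in siControl, and 3106 higher in the mean. It left 1457 blunted rises and 5218 blunted falls, and the cause was not tested. Leaving out single libraries gave, in siPcgf5, 3296 to 4506 genes higher and 3593 to 4834 lower. In siControl it gave 3396 to 4123 higher and 3436 to 4669 lower, and in the mean 4634 to 5144 higher and 5429 to 6028 lower. Blunted rises then numbered 2321 to 3082, exaggerated rises 1883 to 2449, blunted falls 2386 to 3245 and exaggerated falls 2398 to 3188.

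Of 65 genes followed through the alternatives 61 kept the sign of their difference. Most were picked by a small p of this same difference, so a kept sign is no separate support. Prkd1 was at 0.30 and Sox21 at 0.13 with limma, Pcgf5 ran from -0.36 to 0.95 and Nr0b1 from -1.33 to 8.27 as single libraries were left out. The 2-cell ZGA median was -0.40 with limma. With 2 libraries a group, a lone library left in an arm is assumed to vary like the others. Genes with few counts at 1 stage limit what the difference can show.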
